A study of Homo sapiens with 6 samples.

Results

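TRIB3, PHGDH, SLC7A5, SLC3A2 and DDIT4 are 5 genes linked in the literature to ATF4 and to the handling of amino acids under stress. They were taken by symbol from a count table of 5117 genes, and each symbol matched 1 row. The 5 were proposed with the difference between the treated and control libraries already in view, so that difference is described here without a test. The cells were HMC3, an established human microglial line labelled wild type, in 3 libraries after CM with C1s (C1s-CM) and 3 after CM without C1s (control CM, libraries titled FLAG). C1s is an enzyme that cleaves complement proteins early in the classical cascade, and the series asks how it bears on microglial metabolism in glioblastoma. The labels do not spell out CM, give no dose or exposure time, and do not say whether the libraries came from separate cultures, so any p-value measures the spread between libraries only, which may be technical.

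When amino acids run short or proteins misfold, kinases phosphorylate the initiation factor eIF2. General translation then slows while the mRNA of the transcription factor ATF4 is translated more. ATF4, with partners such as the C/EBP proteins, switches on genes for amino acid uptake and synthesis, and also genes that restrain growth signalling. SLC7A5 (LAT1) imports large neutral amino acids such as leucine and is held at the cell surface by its heavy chain SLC3A2 (CD98). PHGDH catalyses the entry step of serine synthesis from a glycolytic intermediate. TRIB3 is a pseudokinase that binds AKT and ATF4, and DDIT4 (REDD1) restrains the growth kinase complex mTORC1 and also responds to hypoxia and glucocorticoids.

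The element through which ATF4 acts is written TGATGNAA, with TGATGCAA as its perfect form. Both strands of RefSeq promoter windows (GRCh38.p14), from 250 bases before to 50 after a transcription start, were searched. The 5 genes had 9 such windows (those of neighbouring starts overlap), and 1 of them, at a start of SLC3A2, held TGATGNAA, against 3.62% of all 35116 windows; no window of the 5 held the perfect form, against 0.866% of all. The SLC3A2 match begins at base 38 after that start (chr11:62881719-62881748, plus strand). Of the other ATF4-linked genes described below, only CHAC1 and CEBPG were looked at singly. They are examples, and no share of such genes with the element is given. CHAC1 has the perfect form 209 bases before its start (chr15:40953251-40953280, plus strand). CEBPG has it 42 bases before one of its starts (chr19:33374060-33374089, plus strand), and the window of its other start holds neither form. The 30 bases around each match follow, with the match in capitals; those of SLC3A2 and CHAC1 are on the opposite strand and so read as the reverse complement.
SLC3A2: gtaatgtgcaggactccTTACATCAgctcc
CHAC1: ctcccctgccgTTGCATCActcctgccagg
CEBPG: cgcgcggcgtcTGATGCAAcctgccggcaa
A match is only a run of letters, and its absence says nothing about elements outside the window.

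The promoter windows of the 5 genes differed in base composition. The GC content of the window was 80.3% for SLC7A5, 75.3 to 77.0% over the 3 TRIB3 starts, 69.7% for DDIT4, 61.0 to 62.7% over the 3 SLC3A2 starts and 52.7% for PHGDH, beside a median of 58.7% over all windows. The GC box GGGCGG, a motif picked after the sequences were seen, was searched on both strands. It was in 7 of the 9 windows, against 45.0% of all windows. The genes with it were TRIB3, SLC7A5 and SLC3A2, 3 of the 5. The 3 TRIB3 windows overlap, so the same site can count in each, and no share per gene was computed over all genes. The 150 bases from 170 to 21 before the start are shown for the transporter pair and for DDIT4. They set promoters that hold GGGCGG beside one that does not, with GGGCGG or its reverse complement CCGCCC in capitals. SLC7A5 is at chr16:87869528-87869677 (minus strand), SLC3A2 at chr11:62881529-62881678 (plus strand, the start with the match above) and DDIT4 at chr10:72273754-72273903 (plus strand).
SLC7A5: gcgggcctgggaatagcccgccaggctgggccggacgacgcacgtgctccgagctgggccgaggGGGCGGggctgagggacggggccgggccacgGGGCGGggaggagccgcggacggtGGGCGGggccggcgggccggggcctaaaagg
SLC3A2: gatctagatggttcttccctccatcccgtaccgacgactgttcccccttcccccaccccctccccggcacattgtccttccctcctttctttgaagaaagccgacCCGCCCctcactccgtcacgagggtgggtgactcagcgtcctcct
DDIT4: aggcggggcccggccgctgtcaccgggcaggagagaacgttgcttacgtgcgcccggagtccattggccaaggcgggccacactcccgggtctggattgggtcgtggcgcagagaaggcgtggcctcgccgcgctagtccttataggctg
The printed SLC7A5 stretch has 3 exact matches to GGGCGG, that of SLC3A2 has 1 and that of DDIT4 has 0. Variants such as GGCGGG, which the DDIT4 stretch holds, were not searched.

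The table holds only genes that had passed the threshold of the authors' own comparison (largest adjusted p 0.05), so its column totals, 12730766 to 14961744 counts, are part of each library and not its depth. A gene that has no row was not analysed here. Every row had already passed on these same counts, so passing again was nearly fixed in advance. The adjusted p-values printed below describe this selected set and are no error rate for a search over all genes. In edgeR's quasi-likelihood test 5086 of 5116 genes (99.4%) passed adjusted p 0.05, of which 2605 (50.9% of all) were higher and 2481 (48.5%) lower, or 1336 and 2517 with the table's total counts as the only scaling; the median log2 fold change of C1s-CM over control CM was 0.08. Of 16 microglial markers 1 had a row, so the labelled cell type could not be checked. Of 8 fibroblast and pericyte markers 3 had a row, among them the collagen gene COL1A1 with a mean of 3741 CPM (counts relative to the scaled library total) in control CM and 3813 CPM in C1s-CM. Of the 3, 2 were called higher in the main fit and 0 with total counts. COL1A1 was not called in the main fit (log2 fold change 0.03) and was called lower with total counts (-0.10).

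All 5 genes were higher in C1s-CM, by 28.0% of the control mean for TRIB3, 19.6% for SLC7A5, 19.5% for PHGDH, 18.7% for SLC3A2 and 16.03% for DDIT4, and for each gene every C1s-CM library lay above every control library. These sizes depend on the scaling (TMM, described below). They were smaller with total counts and larger in the authors' values. Of all genes tested, 50.9% were called higher, 48.9% had all C1s-CM libraries above all control libraries, and 97.2% had no overlap in either direction; since the 5 were chosen on this contrast, nothing is read from their count. In RNA from whole cultures, a change in the share of cells that express a gene and a change in RNA per cell cannot be told apart. Their raw counts ran from 2627 to 17772 in a library, where counting error alone is at most 1.95% of the count.

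TRIB3 (ENSG00000101255, chromosome 20, 362835 to 397559, plus strand), the stress-induced pseudokinase, had the largest difference of the 5. The counts of the gene were 3421, 3655 and 3311 in C1s-CM and 2627, 2633 and 2928 in control CM. Scaled by TMM, a method that matches libraries on their middle genes, these were 250.5, 256.2 and 243.2 CPM against 199.1, 186.4 and 200.6 CPM. The groups did not overlap, with 42.6 CPM between the lowest C1s-CM and the highest control library. The means were 249.97 ± 6.53 and 195.4 ± 7.82 CPM (SD, n = 3 each), and the log2 fold change was 0.36 ± 0.03 (SE).

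PHGDH (ENSG00000092621, chromosome 1, 119648411 to 119744226, plus strand), the serine synthesis enzyme, was the most abundant of the 5. Raw counts were 16339, 17772 and 16614 in C1s-CM and 13779, 14433 and 14579 in control CM, or 1196, 1246 and 1220 CPM against 1044, 1022 and 999 CPM. The 152 CPM between the groups exceeded the whole range within either group. The means were 1221 ± 24.7 and 1022 ± 22.9 CPM (SD, n = 3 each), and the log2 fold change was 0.26 ± 0.03 (SE).

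SLC7A5 (ENSG00000103257, chromosome 16, 87830023 to 87869488, minus strand), the leucine transporter, had 7536, 7476 and 7169 counts in C1s-CM and 5923, 6165 and 6632 in control CM. These were 552, 524 and 527 CPM against 449, 436 and 454 CPM, so that C1s-CM replicate 1 was the highest library and the other two were alike. Its means were 534 ± 15.4 and 447 ± 9.21 CPM (SD, n = 3 each), a log2 fold change of 0.26 ± 0.03 (SE). An antisense gene lies within SLC7A5 in the annotation, and whether the authors counted by strand is not given in the sources used here.

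SLC3A2 (ENSG00000168003, chromosome 11, 62856102 to 62888875, plus strand), the heavy chain partner of SLC7A5, had 5173, 5571 and 5338 counts in C1s-CM and 4255, 4681 and 4732 in control CM. The scaled values, 379, 391 and 392 CPM against 323, 331 and 324 CPM, were, relative to their mean, the tightest of the 5 within the control group. The means were 387 ± 7.27 and 326 ± 4.68 CPM (SD, n = 3 each), and the log2 fold change was 0.25 ± 0.03 (SE).

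DDIT4 (ENSG00000168209, chromosome 10, 72273920 to 72276036, plus strand), the mTORC1 inhibitor, had the smallest difference. Raw counts were 5978, 6329 and 6138 in C1s-CM and 5206, 5429 and 5395 in control CM, or 438, 444 and 451 CPM against 395, 384 and 370 CPM. The gap between the groups, 43.1 CPM, was larger than the range within either. The means were 444 ± 6.56 and 383 ± 12.6 CPM (SD, n = 3 each), and the log2 fold change was 0.21 ± 0.03 (SE). The antisense gene DDIT4-AS1 overlaps it, with the same limit on strand.

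**Figure D1:**
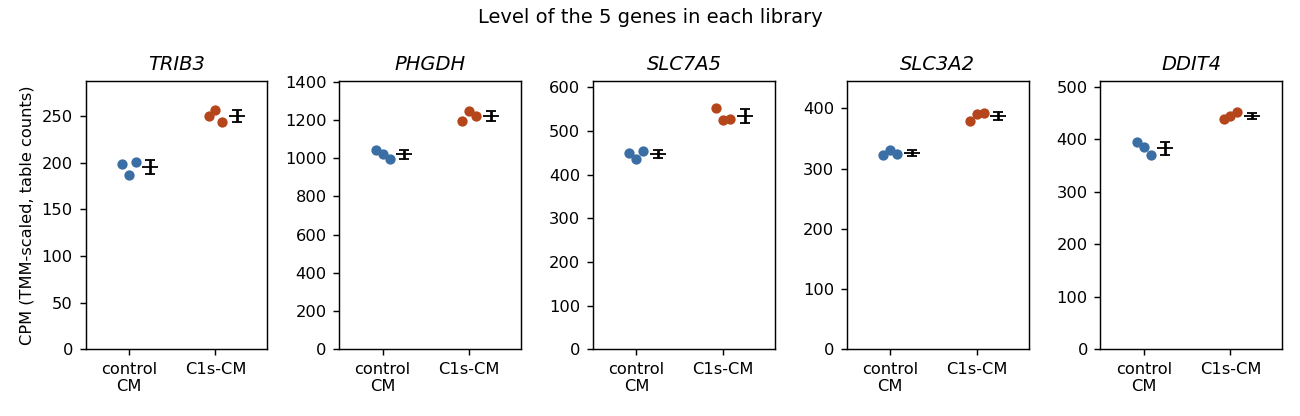
Points are single libraries, in TMM-scaled CPM of the table's counts on an axis from 0; the black mark and bar are the mean and SD of 3 libraries in control CM and C1s-CM. For each of the 5 genes the C1s-CM libraries lie above the control libraries, with means from 16.03% (DDIT4) to 28.0% (TRIB3) higher.

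Per kilobase of the representative transcript, the order of the 5 genes was the same in both groups. In control CM the levels were 395 ± 8.85 CPM per kilobase for PHGDH, 219 ± 7.20 for DDIT4, 151 ± 2.16 for SLC3A2, 98.4 ± 2.03 for SLC7A5 and 78.2 ± 3.13 for TRIB3 (SD, n = 3). In C1s-CM they were 472 ± 9.56, 254 ± 3.75, 179 ± 3.36, 118 ± 3.38 and 100.0 ± 2.61 in that order. Each step of the order was larger than the spread of its neighbours. The heavy chain SLC3A2 thus stood above SLC7A5 per length, although its raw counts were lower.

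Ratios of counts within a library do not depend on how libraries are scaled, and they show how far the 5 genes differed from each other. The SLC7A5 to SLC3A2 ratio, that of the light to the heavy chain, was 1.457, 1.342 and 1.343 in C1s-CM and 1.392, 1.317 and 1.402 in control CM. Its groups overlapped, with means of 1.38 ± 0.0660 and 1.37 ± 0.0463 (SD, n = 3 each). PHGDH over SLC7A5 was 2.29 ± 0.108 in C1s-CM and 2.29 ± 0.0786 in control CM, and PHGDH over SLC3A2 was 3.15 ± 0.0391 and 3.13 ± 0.0902, both with overlap. These 3 genes thus kept their proportions within the spread of the libraries. As they were chosen on this contrast and other gene pairs were not compared, nothing more is read from it.

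TRIB3 was higher relative to the other 4 genes in C1s-CM, by 7.04% against PHGDH, 7.06% against SLC7A5, 7.73% against SLC3A2 and 10.2% against DDIT4. Its ratio to SLC7A5 was 0.454, 0.489 and 0.462 in C1s-CM and 0.444, 0.427 and 0.442 in control CM, and its ratio to SLC3A2 was 0.661, 0.656 and 0.620 against 0.617, 0.562 and 0.619, without overlap but with gaps smaller than the range within a group. Its ratios to PHGDH and to DDIT4 overlapped between the groups. PHGDH over DDIT4 was 3.00% higher in C1s-CM, at 2.733, 2.808 and 2.707 against 2.647, 2.658 and 2.702. With 3 libraries against 3 an exact permutation test cannot go below p = 0.10, and none was run because these ratios come from the contrast on which the genes were chosen.

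**Figure D2:**
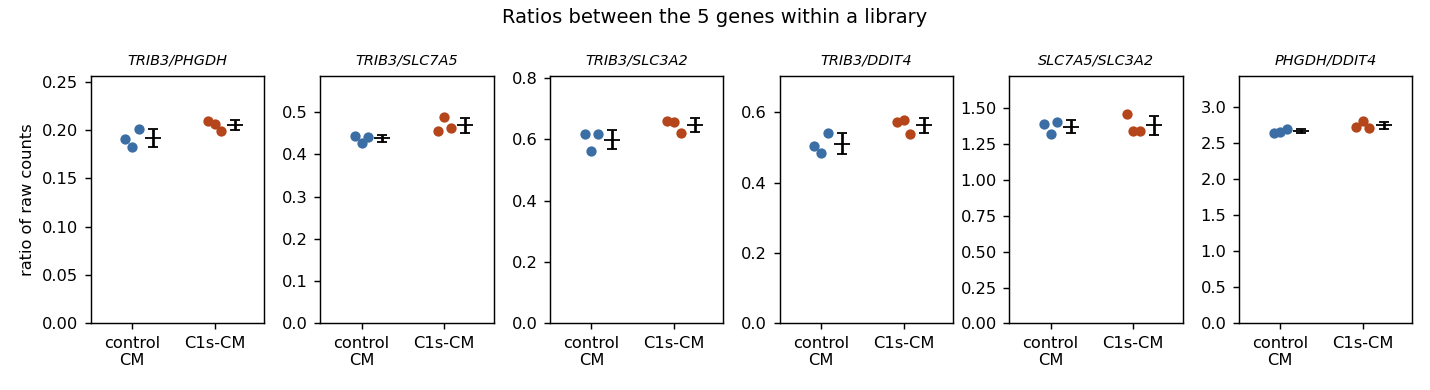
Each panel plots the ratio of raw counts of 2 of the genes in single libraries, on an axis from 0, with the mean and SD of 3 libraries in control CM and C1s-CM. The SLC7A5 to SLC3A2 ratio overlaps between the groups, and TRIB3 is 7.06% higher relative to SLC7A5 and 7.73% higher relative to SLC3A2 in C1s-CM.

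The transcripts of the 5 genes share a high GC content. In this table GC content and direction go together, so a choice of higher genes is largely one of GC-rich genes, and the shared GC content is no independent property of the 5. In the representative transcript of GENCODE 29 it was 60.9% for TRIB3, 58.3% for PHGDH, 61.1% for SLC7A5 and 58.1% for both SLC3A2 and DDIT4, with lengths of 2499, 2585, 4537, 2161 and 1748 bases. Over the table, 97.2% of the 2523 genes at or above 50% GC were called higher, against 5.87% of the 2589 genes under 50%. Each gene was then set beside the genes of its own decile of GC content. PHGDH, SLC3A2 and DDIT4 lay in the decile from 55.4 to 58.5% GC, whose 511 genes had a median log2 fold change of 0.20. Of those genes, 71.4% had a smaller log2 fold change than PHGDH, 67.1% than SLC3A2 and 56.6% than DDIT4. TRIB3, in the decile from 58.5 to 61.1% with a median of 0.23, exceeded 86.7% of its 511 genes. SLC7A5, in the decile from 61.1 to 63.8% with a median of 0.26, exceeded 47.7% of its 511 genes.

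**Figure D3:**
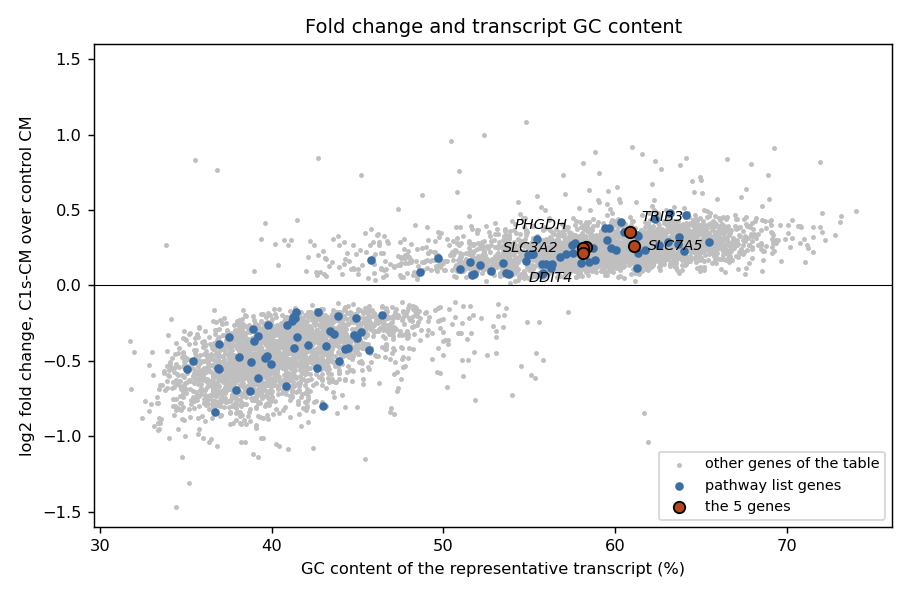
Each point is a gene of the table, with the GC content of its representative transcript (%) on the horizontal axis and the fitted log2 fold change of C1s-CM over control CM on the vertical axis; 6 genes lie beyond the vertical range and genes without an annotated transcript are not drawn. The 5 genes, with 58.1 to 61.1% GC, sit among the GC-rich genes of the table, and TRIB3 lies above the others.

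With per-library offsets fitted to transcript GC content and length, the log2 fold change was 0.11 ± 0.03 for TRIB3, 0.05 ± 0.02 for PHGDH, 0.03 ± 0.02 for SLC7A5, 0.03 ± 0.03 for SLC3A2 and -0.02 ± 0.03 for DDIT4 (SE). These values are a description, as they come from the contrast on which the genes were chosen. Of all 5112 genes fitted so, 14.3% were called higher, 11.8% lower and 26.1% in either direction. The PHGDH value depended on the transcript used, since its longest transcript has 52.3% GC and its representative one 58.3%. With the longest transcripts PHGDH was 0.11, TRIB3 0.09 and DDIT4 -0.05, and 14.5% of all genes were called higher, 12.7% lower and 27.2% in either direction. The offsets would also remove a biological difference that follows GC content or length, and which of these holds was not tested.

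The scaling of the libraries moved the 5 values together. With the table's total counts as the only scaling every gene shifted by about -0.13 on the log2 scale, and the values were 0.23 ± 0.03 for TRIB3, 0.13 ± 0.02 for PHGDH, 0.13 ± 0.03 for SLC7A5, 0.12 ± 0.03 for SLC3A2 and 0.09 ± 0.03 for DDIT4 (SE). The groups of each of the 5 genes did not overlap on that scale either. The share of all genes without overlap was not computed on it, so nothing is read from this. Of all genes, 26.1% were called higher on it, 49.2% lower and 75.3% in either direction. In the authors' deposited table the log2 fold changes were 0.39, 0.29, 0.29, 0.28 and 0.25 in the same order, each 0.04 above the fit given here. Relative to the median gene of the table the differences were 0.28, 0.18, 0.18, 0.17 and 0.13, whichever of TMM or total counts was used.

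**Figure D4:**
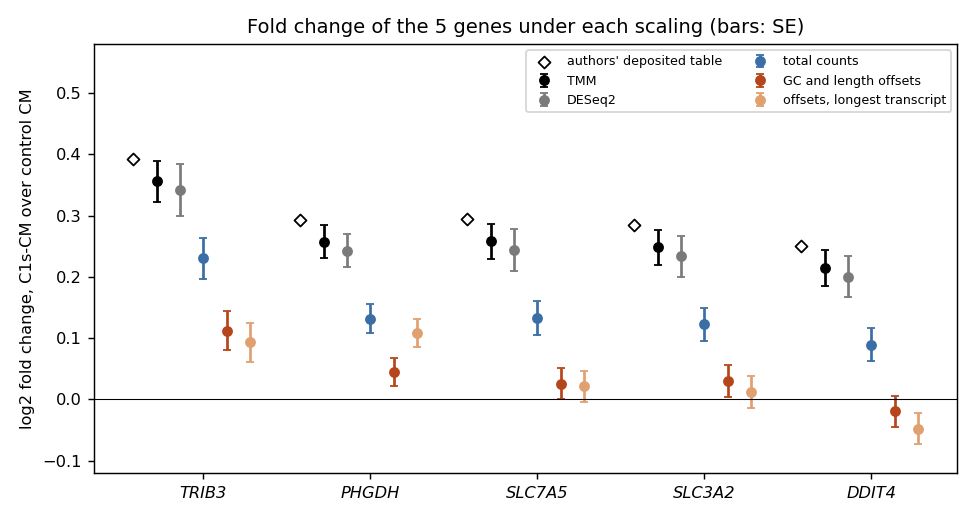
For each of the 5 genes the log2 fold change of C1s-CM over control CM is plotted under 5 ways of scaling, with bars for the SE, beside the value in the authors' deposited table, which has no bar. Values fall from 0.39 in the authors' table to 0.11 with offsets for TRIB3, and from 0.25 to -0.02 for DDIT4.

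Other genes of the pathway went both ways. The name ATF4-linked describes only where the 5 genes are known from. Whether ATF4 acted on them in these libraries was not tested. Of 219 genes in 9 lists around ATF4, amino acids, mTORC1 and hypoxia, 98 had a row, 54 called higher and 44 lower, with a median log2 fold change of 0.08, the same as for all genes tested. All 51 of them at or above 50% GC were called higher. Of the 47 under 50% 44 were called lower, and the exceptions were EIF2B2, MTHFD1 and WDR59. With total counts as the only scaling 23 were higher and 44 lower. With offsets 22 were higher and 14 lower, and 11 and 10 of these had been called in the same direction before. Over all genes, 50.9% were higher and 48.5% lower in TMM scaling, 26.1% and 49.2% with total counts, and 14.3% and 11.8% with offsets. The counts of each list below are to be set beside these shares.

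At the upstream end of the pathway, 11 of 19 genes for eIF2 kinases and initiation had a row, 4 higher and 7 lower, beside 50.9% and 48.5% of all genes (0 and 7 with total counts, 3 and 2 with offsets). The double-stranded RNA sensor kinase EIF2AK2 (PKR) was at 68.0, 59.7 and 66.0 CPM in C1s-CM and 101.2, 104.7 and 108.9 CPM in control CM, and fell by 0.70 ± 0.05 (log2, SE). The eIF2 subunits EIF2S1 (-0.34 ± 0.04) and EIF2S2 (-0.31 ± 0.03) and the initiation factor EIF2A (-0.47 ± 0.04) fell too. With offsets EIF2AK2 (-0.13) and EIF2S2 (-0.10) were still lower, EIF2A (-0.09) missed the threshold, which it passed with the longest transcript (-0.16), and EIF2S1 turned to 0.17 and passed it.

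ATF4 itself, ATF3, DDIT3 (CHOP) and CEBPB had no row and were not analysed here. Of 19 genes for ATF4 and its partner factors 4 had a row, 1 higher and 3 lower (0 and 2 with offsets). CEBPG, a C/EBP partner of ATF4 and itself one of its targets, fell by 0.50 ± 0.06 (SE, adjusted p = 8.77e-08, edgeR), from 47.1, 46.0 and 47.7 CPM to 32.6, 32.8 and 34.3 CPM. ATF2, a related bZIP factor (-0.55 ± 0.06), and NFE2L2 (NRF2), the oxidative stress factor (-0.43 ± 0.05), fell, and the AP-1 subunit FOSL1 rose (0.23 ± 0.05). With offsets CEBPG (-0.18) and NFE2L2 (-0.23) were still lower, while ATF2 (0.011) and FOSL1 (-0.029) missed the threshold.

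Stress genes downstream of ATF4 had 12 rows of 28 listed, 8 higher and 4 lower, beside 50.9% and 48.5% of all genes. With total counts the numbers were 4 and 4, and with offsets 2 and 2. CHAC1, which degrades glutathione, rose by 0.33 ± 0.05 (SE, adjusted p = 3.59e-06, edgeR), with 74.7, 67.9 and 71.1 CPM in C1s-CM and 57.4, 57.8 and 54.6 CPM in control CM. SESN2, a leucine sensor that like DDIT4 restrains mTORC1, rose by 0.30 ± 0.05, and EIF4EBP1, a translation repressor and mTORC1 substrate, by 0.29 ± 0.03. KLHL24, a ubiquitin ligase adaptor, fell by 0.84 ± 0.08, and TXNIP, an inhibitor of glucose uptake, fell by 0.21 ± 0.03. With offsets CHAC1 (0.05), SESN2 (0.08) and EIF4EBP1 (-0.07) missed the threshold, KLHL24 (-0.24) kept its fall, and TXNIP turned to 0.08 and passed it, a call lost with the replicate block added (adjusted p = 0.0691, edgeR) and with the longest transcript (0.829). TRIB1 and TRIB2, the paralogs of TRIB3, had no row.

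Around PHGDH, the serine, glycine and one-carbon list had 9 rows of 23, 5 higher and 4 lower (2 and 4 with total counts, 4 and 0 with offsets), and PSAT1 and PSPH, the enzymes that follow PHGDH in serine synthesis, had no row. SHMT2, which makes glycine from serine in mitochondria, rose by 0.21 ± 0.03 (SE), from 882, 883 and 847 CPM to 1004, 1023 and 992 CPM. AHCY, which clears S-adenosylhomocysteine, rose by 0.31 ± 0.03. MTHFD2, the mitochondrial one-carbon enzyme and a textbook ATF4 target, fell by 0.18 ± 0.03 (adjusted p = 1.98e-05, edgeR), from 221, 229 and 233 CPM to 203, 197 and 204 CPM. With offsets MTHFD2 turned to 0.26 and passed the threshold as a higher gene, AHCY (0.14) stayed higher, and SHMT2 (0.05) missed it. MTHFD2 has a GC content of 41.4%, against 58.3% for PHGDH.

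Other amino acid synthesis genes had 12 rows of 19, 8 higher and 4 lower (4 and 4 with total counts, 1 and 2 with offsets), and ASNS, the asparagine synthetase, had no row. The proline synthesis enzymes PYCR1 (0.23 ± 0.03, SE) and PYCR3 (0.48 ± 0.05) rose. The branched-chain aminotransferase BCAT1 (-0.69 ± 0.03) fell. With offsets PYCR3 (0.21) and BCAT1 (-0.10) kept their direction past the threshold, and PYCR1 (-0.04) missed it. The BCAT1 call was lost with the replicate block added (adjusted p = 0.0601, edgeR).

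Beside SLC7A5 and SLC3A2, 10 of 32 other amino acid transporters had a row, 5 higher and 5 lower (1 and 5 with total counts, 2 and 1 with offsets). SLC1A5 (ASCT2), the glutamine transporter often paired with SLC7A5 in accounts of leucine uptake, was 509, 499 and 495 CPM in C1s-CM and 458, 466 and 465 CPM in control CM, a rise of 0.11 ± 0.03 (SE) in TMM scaling that was -0.011 with total counts and a fall of 0.13 with offsets. The glutamine and neutral amino acid transporters SLC38A1 (-0.41 ± 0.05) and SLC38A2 (-0.48 ± 0.03), the proton-coupled transporter family member SLC36A4 (-0.55 ± 0.08) and the cystine transporter SLC7A11 (-0.50 ± 0.10), a second light chain that pairs with SLC3A2, fell. The glycine transporter SLC6A9 rose (0.38 ± 0.06). With offsets SLC6A9 (0.16) stayed higher, and SLC38A1 (0.07), SLC38A2 (0.08), SLC36A4 (0.09) and SLC7A11 (0.16) turned and missed the threshold. The SLC6A9 call was lost with the replicate block added (adjusted p = 0.0502, edgeR) and with the longest transcript (0.0644).

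The aminoacyl-tRNA synthetases, several of which are ATF4 targets, had 13 rows of 20, 7 higher and 6 lower (3 and 6 with total counts, 2 and 2 with offsets). FARSA, for phenylalanine, rose (0.33 ± 0.03, SE), and EPRS1 (-0.40 ± 0.04), LARS1 (-0.35 ± 0.03) and TARS1 (-0.32 ± 0.03), for glutamate and proline, leucine and threonine, fell. With offsets LARS1 turned to 0.10 and passed the threshold, and FARSA (0.06), EPRS1 (-0.02) and TARS1 (0.016) missed it. The LARS1 call was lost with the replicate block added (adjusted p = 0.0517, edgeR) and with the longest transcript (0.187).

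DDIT4 acts on mTORC1. Of 43 genes for mTORC1 and amino acid sensing 19 had a row, 14 higher and 5 lower, beside 50.9% and 48.5% of all genes. The median log2 fold change was 0.21, beside 0.08 over all genes. The list's median GC content was 57.7%, against 49.3% over all genes. The decile from 55.4 to 58.5% GC had a median log2 fold change of 0.20. Whether the list's median follows from its GC content was not tested. The mTOR complex subunit MLST8 (0.46 ± 0.04, SE), the lysosomal Ragulator subunit LAMTOR4 (0.42 ± 0.04) and the S6 kinase RPS6KB2 (0.44 ± 0.04) rose. With total counts 8 were higher and 5 lower. With offsets 5 were higher and 2 lower, MLST8 (0.17) and RPS6KB2 (0.16) stayed higher, and LAMTOR4 (0.09) missed the threshold, which it passed with the longest transcript (0.11). Hypoxia genes, which share a regulator with DDIT4, had 8 rows of 16. Of these 2 were higher and 6 lower, beside 50.9% and 48.5% of all genes. With total counts the numbers were 0 and 6, and with offsets 3 and 1. HIF1A, the oxygen-regulated factor, fell by 0.61 ± 0.04 and LOX, BNIP3L and P4HA1 fell by 0.48 ± 0.04, 0.29 ± 0.03 and 0.26 ± 0.03. With offsets HIF1A (-0.12) stayed lower, BNIP3L (0.21) and P4HA1 (0.13) turned and passed the threshold, and LOX (0.04) missed it. With the longest transcript the calls of HIF1A (-0.07) and P4HA1 (0.074) were lost (adjusted p = 0.209 and 0.0917, edgeR).

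**Figure D5:**
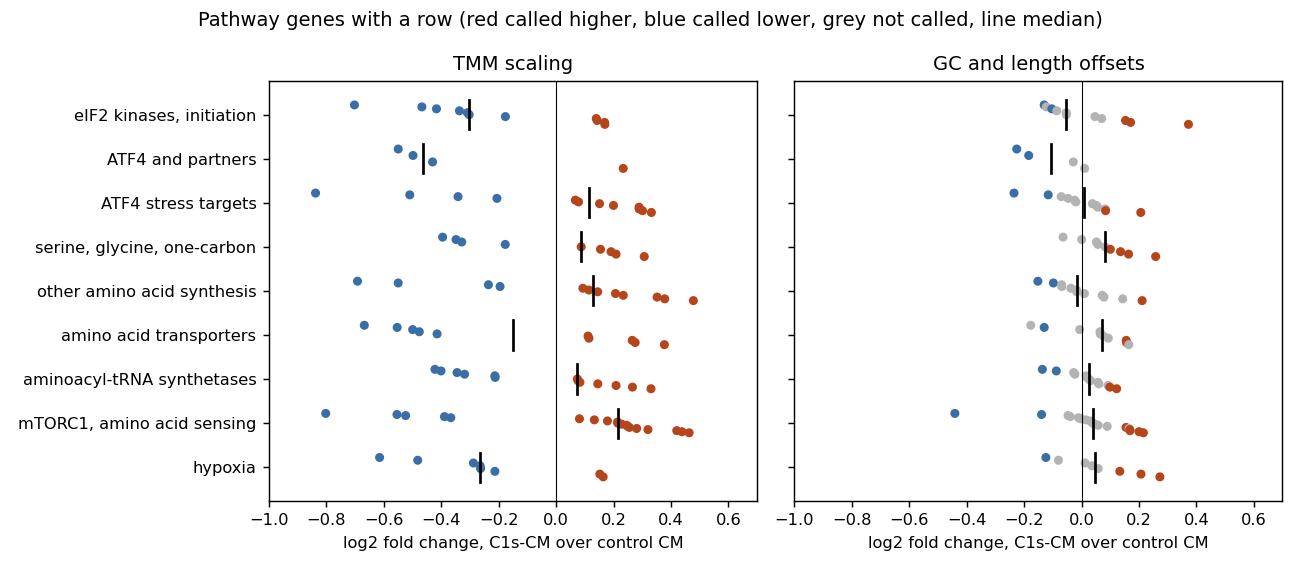
Each point is a list gene with a row, placed by its log2 fold change of C1s-CM over control CM in TMM scaling (left) and with GC and length offsets (right); red and blue are called higher and lower at adjusted p 0.05, grey is not called, and the line is the list's median. Each list holds genes in both directions on the left, and with offsets most points are not called.

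The profile of the 5 genes over the 6 libraries was a common one in the table. It was taken as the mean over the 5 of log2 CPM centred on each gene's mean, and likeness as the root mean square difference over the 6 libraries. Nearest among 4770 genes with at least 10 CPM were EEF1A2, a translation elongation factor (0.0100), NDUFV1, a complex I subunit (0.0105), SPINDOC (0.0106), USP11, a deubiquitinase (0.0112), and POLD2, a DNA polymerase delta subunit (0.0122). Within 0.05 of the profile lay 774 genes. Nearest to single genes were TIMM17B for TRIB3 (0.0124), PHB for PHGDH (0.00800), LMF2 for SLC7A5 (0.0130), MT-ND1 for SLC3A2 (0.00898) and P3H3 for DDIT4 (0.0126). Between the 5 themselves the difference ran from 0.0263 for PHGDH and SLC3A2 to 0.0906 for TRIB3 and DDIT4. Each had a nearer neighbour elsewhere in the table than among the other 4. As 4770 genes were searched against 4, nothing is read from that.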

How the data were processed

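RNA from 6 libraries was sequenced after poly(A) selection, random priming and paired-end reading, per the labels' protocols. FastQC 0.11.9, Trim Galore 0.6.7, HISAT2 2.2.1, DESeq2 1.40.2 and GRCh38 are named in the submitters' processing notes; for the read counter, the gene annotation and strand handling no source used here gives a name. The authors deposited unnormalized raw counts for genes past their threshold. Beside them the deposited columns give a log2 fold change with its p-value, raw and adjusted, for C1s-CM over control CM. Counts were fitted in edgeR 4.0.16 (R 4.3.3) with filterByExpr, TMM, the quasi-likelihood test (two-sided, group as the only term) and Benjamini-Hochberg adjustment over 5116 genes, threshold 0.05. The SE is the log2 fold change over the square root of F. GENCODE 29 (GRCh38) matched 5113 of 5117 identifiers and gave coordinates and, for a representative transcript, length and GC content (principal isoform, then support level, then length). Offsets came from a loess fit per library (span 0.3, 5112 genes), on selected genes alone. The steps were also run on simulated counts where most genes were unchanged or followed only a straight GC trend, unlike in this table. Those runs do not show that the scaling is right here.

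The 5 genes and all lists were chosen with earlier results of these data known. Named genes are the 5, up to 4 per list with the smallest p among called genes of at least 1 CPM, a stated set of ATF4-linked genes, and the nearest profiles. Some genes that this rule or the marker lists name are not reported here, though counts include them. C1S and C1R had no row. Alternatives were DESeq2 1.42.0, total counts, other filters, a replicate block, offsets and leaving out each library.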

Additional observations from a re-analysis of the deposited data

How the results depend on the processing

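Under DESeq2, without a filter, with at least 50 counts, with the replicate block and without each library in turn, the values of the 5 genes moved by less than 1 SD between libraries and the 49 other named genes kept direction and threshold. Most of these genes were picked as called in this contrast, so keeping the threshold was nearly fixed in advance. Over all genes, 4934 passed under DESeq2, 5054 with the replicate block and 4996 to 5051 without 1 library. Leaving out 1 library gave 0.33 to 0.38 for TRIB3, 0.24 to 0.28 for PHGDH, 0.23 to 0.27 for SLC7A5, 0.24 to 0.27 for SLC3A2 and 0.19 to 0.24 for DDIT4. The replicate block is an alternative only. Same-numbered libraries of the groups had correlations of -0.126, -0.087 and -0.003 in their deviations from the group means, which shows no strong shared deviation. Whether they were handled in pairs is not given in the labels. Total counts gave 0.23, 0.13, 0.13, 0.12 and 0.089 for the 5 genes in that order, 1336 genes higher in all, and 23 list genes higher; SLC1A5 turned to -0.011 and P3H3 (0.10) missed the threshold.

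With GC and length offsets the 5 genes had 0.112, 0.045, 0.026, 0.030 and -0.020, and with the replicate block added 0.112, 0.045, 0.026, 0.030 and -0.020; with the longest transcript 0.093, 0.108, 0.021, 0.012 and -0.048. The numbers past the threshold were 1, 1 and 2 of the 5 (a description, since they were chosen on this contrast), 1333, 1188 and 1388 of all genes (732, 676 and 741 higher, 601, 512 and 647 lower), and 22, 19 and 17 list genes higher against 14, 11 and 18 lower, in the order offsets, offsets with replicate block, offsets with the longest transcript.

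The direction of 22 other named genes turned with offsets: EIF2S1 0.171, ATF2 0.011, FOSL1 -0.029, EIF4EBP1 -0.071, TXNIP 0.084, MTHFD2 0.258, PYCR1 -0.037, SLC36A4 0.093, SLC38A1 0.066, SLC38A2 0.076, LARS1 0.099, TARS1 0.016, BNIP3L 0.207, P4HA1 0.134, LOX 0.036, SLC7A11 0.165, SLC1A5 -0.130, EEF1A2 -0.034, NDUFV1 -0.0013, SPINDOC -0.036, LMF2 -0.051 and P3H3 -0.056. With the replicate block added the same genes turned, and the values that differed in the third decimal were MTHFD2 0.259, SLC36A4 0.095, P4HA1 0.133 and LMF2 -0.050. With the longest transcript 20 turned: EIF2S1 0.148, FOSL1 -0.049, EIF4EBP1 -0.050, TXNIP 0.011, SHMT2 -0.0079, MTHFD2 0.231, PYCR1 -0.054, SLC36A4 0.065, SLC38A1 0.056, SLC38A2 0.048, LARS1 0.061, BNIP3L 0.187, P4HA1 0.074, LOX 0.0045, SLC7A11 0.173, SLC1A5 -0.146, EEF1A2 -0.0008, SPINDOC -0.050, LMF2 -0.059 and P3H3 -0.032. The cause was not tested. The offsets are fitted on genes already selected by the authors, which limits them, and 3 libraries a group limit every call.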
